A study of Mus musculus with 2 samples.

Results

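Leukocyte nuclei of the developing mouse kidney were examined in single-nucleus RNA sequencing of whole kidneys, with 1 library of embryonic day E18.5 and 1 of postnatal day P3. A nucleus was kept when it held 1000 to 6000 unique molecular identifiers (UMIs, each 1 captured RNA molecule) at E18.5, or 1000 to 10000 at P3, with a mitochondrial share of up to 0.6%. It was called a leukocyte nucleus when at least 3 of the 8 genes Ptprc, Mrc1, Csf1r, Adgre1, Fyb, Dock2, Inpp5d and Cd84 had a UMI and their UMIs summed to at least 4. This rule found 210 leukocyte nuclei among 18673 kept nuclei at E18.5 and 236 among 9289 at P3, or 446 of 27962 kept nuclei in all, from 33816 deposited barcodes. The E18.5 kidneys carried the alleles Mycf/f;Mycnf/f (no Cre) on a mixed background, and the P3 kidneys were Wild type on C57BL/6J according to the labels. The methods of the study give a mixed background for both. At each age kidneys of male and female mice were pooled before nuclei were isolated, so no library stood for a single animal. Age, genotype, background, library and the release of the counting software change together between the libraries and cannot be told apart, and with 1 library per age no test between ages was possible. All intervals below are exact 95% intervals that cover counting error only.

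Most leukocytes of the perinatal kidney are macrophages. These cells depend on signaling through the CSF-1 receptor encoded by Csf1r, engulf dying cells and debris, and are identified by surface proteins such as F4/80, encoded by Adgre1, and the mannose receptor, encoded by Mrc1. Ptprc encodes CD45, the phosphatase found on nucleated blood cells, whereas Fyb, Dock2 and Inpp5d encode an adaptor, a Rac activator and a lipid phosphatase of leukocyte signaling, and Cd84 encodes a leukocyte adhesion receptor.

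Leukocyte nuclei made up 1.12% of kept nuclei at E18.5 (interval 0.978 to 1.29) and 2.54% at P3 (2.23 to 2.88). The P3 share was 2.26 times the E18.5 share (1.87 to 2.73). It was 4.03 times without mixed nuclei, those with at least 10 UMIs of other cell classes. That filter removed 79.2% of other nuclei at E18.5 and 90.9% at P3, but 42.9% and 51.3% of leukocyte nuclei. The value of 4.03 therefore follows from the filter and does not measure leukocyte content. After random thinning of every nucleus to a depth of 1000 UMIs, 123 and 162 nuclei met the rule, which is 0.659% at E18.5 and 1.74% at P3. UMIs per leukocyte nucleus ranged from 1321 to 5886 around a median of 2596 at E18.5, and from 1025 to 9614 around a median of 3098 at P3. Other kept nuclei had medians of 2965 and 4371 UMIs, so leukocyte nuclei were the shallower nuclei at both ages. The leukocyte nuclei together held 623981 UMIs at E18.5 and 876985 at P3, of 77688411 and 70559806 deposited UMIs. The libraries shared 69 barcodes, which 0 leukocyte nuclei at E18.5 and 1 at P3 carried.

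The rule itself chose these nuclei on the 8 genes, whose values are therefore given as a description. Ptprc was detected in 86.2% of leukocyte nuclei at E18.5 and 82.6% at P3, against 2.05% and 1.16% of proximal tubule nuclei, which should lack it. The proximal tubule nuclei were the kept nuclei, not called leukocytes, in which at least 4 of 8 proximal tubule markers were detected. They numbered 1412 at E18.5 and 1720 at P3, with median depths of 3848 and 5990 UMIs. Mrc1 was detected in 71.4% and 67.4% of leukocyte nuclei, at 1305 (1216 to 1397) and 1904 (1814 to 1998) CPM (UMIs of the gene summed over the nuclei, as counts per 1000000 of all their UMIs). Adgre1 was detected in 65.7% and 65.3% of leukocyte nuclei and in 0.283% and 0.581% of proximal tubule nuclei. Csf1r was the gene with the least contrast to proximal tubule nuclei, with 45.7% and 61.4% of leukocyte nuclei against 10.4% and 8.49% of proximal tubule nuclei. Cd84 was the least often detected of the 8, in 36.7% and 39.8% of leukocyte nuclei.

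**Figure D1:**
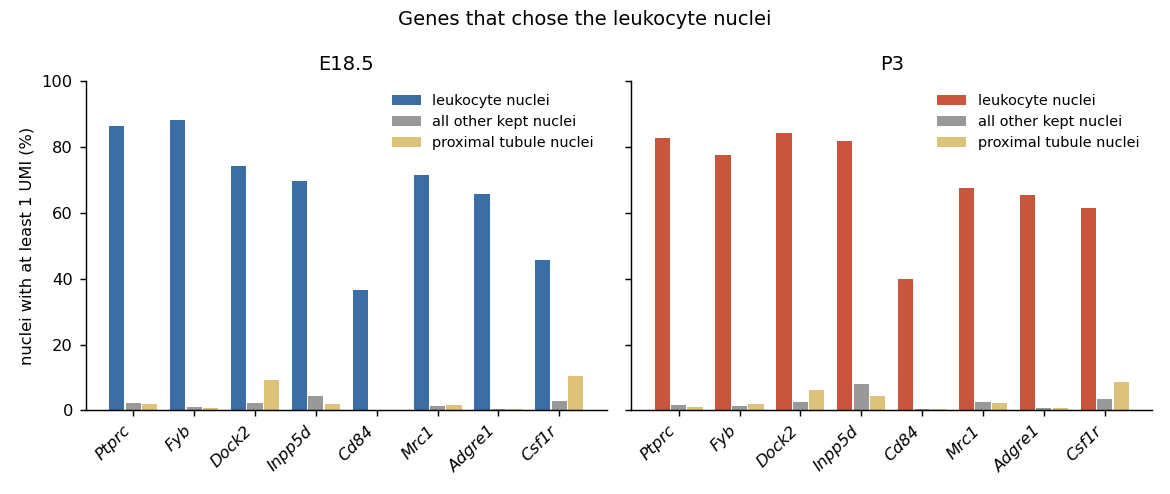
Share of nuclei with at least 1 UMI (percent, vertical axis) for each of the 8 genes of the membership rule at E18.5 and P3, with bars for leukocyte nuclei, all other kept nuclei and proximal tubule nuclei. The bars of leukocyte nuclei range from 36.7% for Cd84 to 88.1% for Fyb at E18.5 and lie above those of both other groups for every gene at both ages.

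The nuclei differed in how many of the 8 genes they showed. At E18.5, 20 leukocyte nuclei had exactly 3 of the genes and 10 had all 8, and at P3 these numbers were 37 and 28. The summed UMIs of the 8 genes had a median of 13 and a highest value of 48 per nucleus at E18.5, and of 19 and 143 at P3. A list of 17 macrophage markers that the rule did not use (among them F13a1, Cx3cr1, Msr1, Ms4a7, Cd163 and the C1q genes) summed to 858 CPM in the E18.5 nuclei just inside the threshold, with exactly 3 genes, and to 506 CPM in the 8 nuclei just outside it, with 3 genes but only 3 UMIs. At P3 the same sums were 232 CPM in 37 nuclei just inside and 0 UMIs in 7 nuclei just outside. In nuclei with 6 to 8 of the genes the macrophage list summed to 2580 CPM at E18.5 and 2869 CPM at P3. It summed to 62.3 and 40.5 CPM in nuclei with none of them. The nuclei just inside the threshold at P3 thus held a small part of the macrophage signal. At P3, 48 leukocyte nuclei (20.3%) had no UMI of Mrc1, Csf1r or Adgre1, and at E18.5, 22 (10.5%) had none.

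Across all genes, the expression of leukocyte nuclei was compared with that of the other kept nuclei of the same library. Of 10595 genes considered at E18.5 (those with at least 10 UMIs in leukocyte nuclei, or at least 10 expected there from the other nuclei), 548 (5.17%) were at least 4-fold higher in leukocyte nuclei and 141 (1.33%) at least 4-fold lower. At P3, 726 of 11437 genes (6.35%) were higher and 138 (1.21%) lower. The median ratio over all genes considered was 0.983 at E18.5 and 0.994 at P3. The genes higher at both ages numbered 477, which is 87.0% of the E18.5 genes and 65.7% of the P3 genes. Nuclei were chosen by 8 genes of the same libraries, so these counts describe the chosen nuclei and test nothing.

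F13a1 (ENSMUSG00000039109), the A subunit of coagulation factor XIII and a gene of tissue macrophages, had 802 UMIs in leukocyte nuclei and 166 in the other nuclei at E18.5. Its level was 1285 CPM (1198 to 1377) against 2.94 CPM, a ratio of 437 (370 to 520). At P3 it had 712 CPM (657 to 770) against 2.56 CPM, a ratio of 278 (226 to 345). It was detected in 53.8% of leukocyte nuclei at E18.5 and in 34.3% at P3, and in 0.992% and 0.988% of proximal tubule nuclei. Among the 15 genes with the highest ratio at E18.5 were Cd86, a ligand that costimulates T cells, with 223 CPM against 0.850 CPM, and C5ar1, a receptor for the complement fragment C5a, with 114 CPM against 0.443 CPM. Myo1f, a myosin of leukocytes, had 316 CPM against 1.24 CPM in that library. Lair1, an inhibitory receptor that binds collagen, had 139 CPM against 0.549 CPM. Il10ra, a subunit of the interleukin-10 receptor, was among the 15 leading genes of both libraries, with 89.7 CPM against 0.389 CPM at E18.5 and 113 CPM against 0.335 CPM at P3.

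The P3 leaders included several genes that were nearly absent from the other nuclei. Ms4a4a, a membrane protein of macrophages, had 210 CPM against 0.502 CPM, a ratio of 418 (266 to 692). Tlr8, a receptor for single-stranded RNA, had 30 UMIs in leukocyte nuclei and 2 in all others, a ratio of 716 (182 to 6182). Nlrp3, an inflammasome sensor, had 26 UMIs against 3, a ratio of 414 (127 to 2135). Spic, a transcription factor of macrophages that recycle heme iron, had 24 UMIs against 2, a ratio of 573 (142 to 4999). Il1rl1, the receptor for interleukin-33, had 57.0 CPM against 0.167 CPM. Of the 15 leading genes per library, 3 were shared between the ages (Gm49144, Gm2245 and Il10ra). Gm49144 and Gm2245 are predicted genes without a name of their own, with 68.9 and 327 CPM in leukocyte nuclei at E18.5 and 25.1 and 144 CPM at P3. The leading inflammasome genes Nlrp1b, at 56.1 CPM at E18.5, and Nlrp1a, at 23.9 CPM at P3, are neighboring paralogs between which reads may have been divided, so their single values are uncertain.

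The transcription factor PU.1, encoded by Spi1, binds purine-rich sites with a GGAA core in genes of myeloid cells. The promoters of the leading genes were searched for GAGGAAGT, 1 form of that site, on both strands. The RefSeq promoter table (GRCm38.p6, 250 bases before to 50 bases after each start) held this motif for 997 of 27025 genes (3.69%). Among the 30 genes with the highest ratio, it was present for 5 of the 22 with a promoter in the table at E18.5 (22.7%) and for 6 of 23 at P3 (26.1%). Of all genes at least 4-fold higher in leukocyte nuclei, 55 of 423 held it at E18.5 and 62 of 543 at P3 (11.4%). The shares were 3.24% and 3.29% for genes within 4-fold. Some leading genes with the motif are shown so that its place can be seen. Inpp5d is added as the gene of the membership rule that held it. The strand of the gene is given 5′ to 3′, with the motif in capitals. Abcg3, BC035044 and Gm15523, with the motif on the opposite strand, and Pld4 also held it and are not shown. F13a1 is chr13:37049181-37049210 and Inpp5d is chr1:87620192-87620311. Tlr1 is chr5:64933559-64933678, Nlrp1b is chr11:71230734-71230853 and Nlrp1a is chr11:71144705-71144824.
F13a1: cgagtccttttGAGGAAGTacccagaggca
Inpp5d: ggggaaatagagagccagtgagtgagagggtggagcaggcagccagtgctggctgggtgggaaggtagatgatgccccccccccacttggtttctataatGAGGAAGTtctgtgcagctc
Tlr1: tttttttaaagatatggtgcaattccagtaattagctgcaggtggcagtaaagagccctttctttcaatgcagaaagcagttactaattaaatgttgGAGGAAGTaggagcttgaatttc
Nlrp1b: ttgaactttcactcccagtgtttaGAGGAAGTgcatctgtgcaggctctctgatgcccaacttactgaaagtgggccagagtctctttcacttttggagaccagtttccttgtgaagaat
Nlrp1a: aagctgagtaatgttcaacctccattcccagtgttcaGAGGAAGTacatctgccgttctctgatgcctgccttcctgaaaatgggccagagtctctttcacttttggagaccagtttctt

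Of the genes shown, Inpp5d lies on the plus strand and the others on the minus strand. The first base of the motif was 20 bases before the start of Inpp5d, 23 before that of Tlr1, 96 before that of Nlrp1b and 83 before that of Nlrp1a, and 14 bases after that of F13a1. The windows of Nlrp1a and Nlrp1b carry largely the same letters, so they are not independent examples. A match describes the letters in the window and not a bound site. Spi1 itself had 157 CPM in leukocyte nuclei against 1.19 CPM in other nuclei at E18.5, and 141 against 0.645 CPM at P3.

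Of a list of 20 leukocyte signaling genes, all 20 were considered at both ages, 20 were at least 4-fold higher in leukocyte nuclei at E18.5 and 19 at P3, where 5.17% and 6.35% of all genes were. Members that were low in other nuclei, such as Btk and Vav1, had enough UMIs only through leukocyte nuclei and so had to be higher, and the count is a description. Arhgap15, a Rac-inactivating protein, had 1030 CPM against 9.49 CPM at E18.5 and 1076 against 13.1 CPM at P3. Btk, a kinase of B cells and myeloid cells, had 72.1 and 98.1 CPM in leukocyte nuclei at the 2 ages. Vav1, an activator of Rac, had 57.7 and 86.7 CPM. Tyrobp, the adaptor DAP12, had 78.5 CPM against 4.50 CPM at E18.5 and 81.0 against 1.46 CPM at P3. Elmo1, a partner of DOCK proteins, had 856 CPM at E18.5 but also 144 CPM in the other nuclei, a ratio of 5.95 (5.44 to 6.50). Dock10 was the member that missed the rule at P3, with a ratio of 3.08 (2.82 to 3.35).

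Of 18 myeloid transcription factors, 14 were considered at each age and 9 were higher at each, beside 5.17% and 6.35% of all genes. Members low in other nuclei, such as Ikzf1 here and Itgam among the integrins, had enough UMIs only through leukocyte nuclei and so had to be higher. Runx1, a factor of blood cell formation, had 873 CPM against 11.7 CPM at E18.5 and 1230 against 11.6 CPM at P3. Ikzf1, which encodes Ikaros, had 338 CPM against 1.59 CPM and 442 against 2.82 CPM. Irf8, a factor of the monocyte and dendritic cell lineages, had 99.4 CPM against 6.53 CPM and 131 against 10.1 CPM. Zeb2 had 2662 CPM in leukocyte nuclei at E18.5 but 989 CPM in the others and was not called higher. Of 8 leukocyte integrins, 3 of 5 considered were higher at E18.5 and 5 of 7 at P3. Itgam, which encodes CD11b, had 68.9 CPM against 0.761 CPM at E18.5 and 65.0 against 0.741 CPM at P3.

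Receptors and opsonins of phagocytosis followed. Of 12 complement genes, 6 of 8 considered were higher at E18.5 and 6 of 9 at P3, beside 5.17% and 6.35% of all genes. Here too, genes very low in other nuclei, such as C3ar1 and Cd163, were considered only through leukocyte nuclei and so had to be higher. C1qa and C1qb had to be higher only at P3, since at E18.5 the filter could be met under 4-fold. The counts for complement, scavenger and Fc receptors are a description. C1qa, C1qb and C1qc encode the chains of C1q, which tags cells for uptake. C1qb had 97.8 CPM (74.8 to 126) against 7.49 CPM at E18.5 and 204 CPM (175 to 236) against 1.82 CPM at P3. C1qa had 67.3 CPM against 5.13 CPM at E18.5 and 122 against 1.43 CPM at P3. C3ar1, the receptor for C3a, had 54.5 and 44.5 CPM. Of 20 scavenger and efferocytosis receptors, 19 were in the files, and 6 of 10 considered were higher at E18.5 and 10 of 14 at P3. Stab1, a receptor for modified lipoproteins, had 663 and 487 CPM, ratios of 50.9 and 49.5. Cd163, the receptor for hemoglobin bound to haptoglobin, had 64.1 CPM against 0.655 CPM and 73.0 against 0.311 CPM. Folr2, a folate receptor that marks some resident macrophages, had 6.41 CPM against 7.89 CPM at E18.5 and 11.4 against 16.1 CPM at P3. It was detected in 13.2% and 23.0% of proximal tubule nuclei against 1.90% and 3.81% of leukocyte nuclei. Of 6 Fc receptor genes, 5 were higher at each age, led in UMIs by Fcer1g, the common gamma chain, with 141 and 130 CPM.

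Of 13 genes of the NADPH oxidase and innate sensing, 9 of 10 considered were higher at E18.5 and 8 of 9 at P3, beside 5.17% and 6.35% of all genes. Members such as Cybb and Tlr7 had enough UMIs only through leukocyte nuclei, so they had to be higher. Cybb, the catalytic subunit of the phagocyte oxidase, had 192 CPM against 1.73 CPM at E18.5 and 169 against 0.836 CPM at P3. Tlr7, another sensor of single-stranded RNA, had 68.9 CPM against 0.336 CPM and 76.4 against 0.335 CPM. Of 16 genes of lysosome and lipid handling, 15 were considered at each age, and 7 were higher at E18.5 and 8 at P3. Ctss, a lysosomal protease, had 149 CPM against 3.33 CPM and 160 against 1.60 CPM. Ctsc, the protease that activates granule enzymes, had 555 CPM against 18.1 CPM and 507 against 12.9 CPM. Of 9 genes of iron and heme handling, all were considered, and 3 were higher at E18.5 and 4 at P3. Slc40a1, the iron exporter ferroportin, had 343 CPM against 46.8 CPM at E18.5 and 391 against 84.5 CPM at P3.

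Among signals, 4 of 16 chemokine and cytokine genes were considered at E18.5 and 8 at P3, and each of those was higher. Il18, an interleukin that inflammasomes activate, had 80.1 CPM against 1.54 CPM at E18.5 and 38.8 against 0.956 CPM at P3. Ccl4, a chemokine, had 20.8 CPM against 0.336 CPM and 17.1 against 0.0956 CPM. Such low genes entered the count only through their level in leukocyte nuclei, so they had to be higher. Of the 8 chemokine receptor genes, 4 were considered and 4 were higher at each age, a count given as a description. Cx3cr1, the fractalkine receptor, had 181 CPM against 14.0 CPM at E18.5 and 161 against 8.74 CPM at P3. Its level in other nuclei was high enough that the filter did not fix its call. Ccr2, a receptor of monocytes, had 70.5 and 62.7 CPM in leukocyte nuclei. Of 12 growth factor genes, 1 of 9 considered was higher at E18.5 and 2 of 10 at P3, beside 5.17% and 6.35% of all genes. Counts this small are a description. Igf1, insulin-like growth factor 1, had 101 CPM against 35.3 CPM and 193 against 52.2 CPM, ratios of 2.86 and 3.69 that did not meet the rule. Of 12 genes of the CSF and IL-34 axis, 3 of 5 considered were higher at E18.5 and 4 of 7 at P3. The ligands of CSF-1 receptor were not among them. Csf1 had 8.01 CPM in leukocyte nuclei and 10.0 CPM in the others at E18.5, and Il34 had 1.60 and 6.25 CPM. Csf3r, the receptor for granulocyte colony-stimulating factor, had 72.1 CPM against 1.61 CPM at E18.5 and 71.8 against 1.86 CPM at P3. Of 20 proliferation genes, 0 were called at either age, with median ratios of 0.971 and 1.04. At least 10 UMIs of that list were found in 42 of 210 leukocyte nuclei at E18.5, an interval of 14.8% to 26.1%, and in 18.4% of others. At P3 it was found in 37 of 236, or 15.7% (11.3 to 21.0), and in 18.6% of others.

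**Figure D2:**
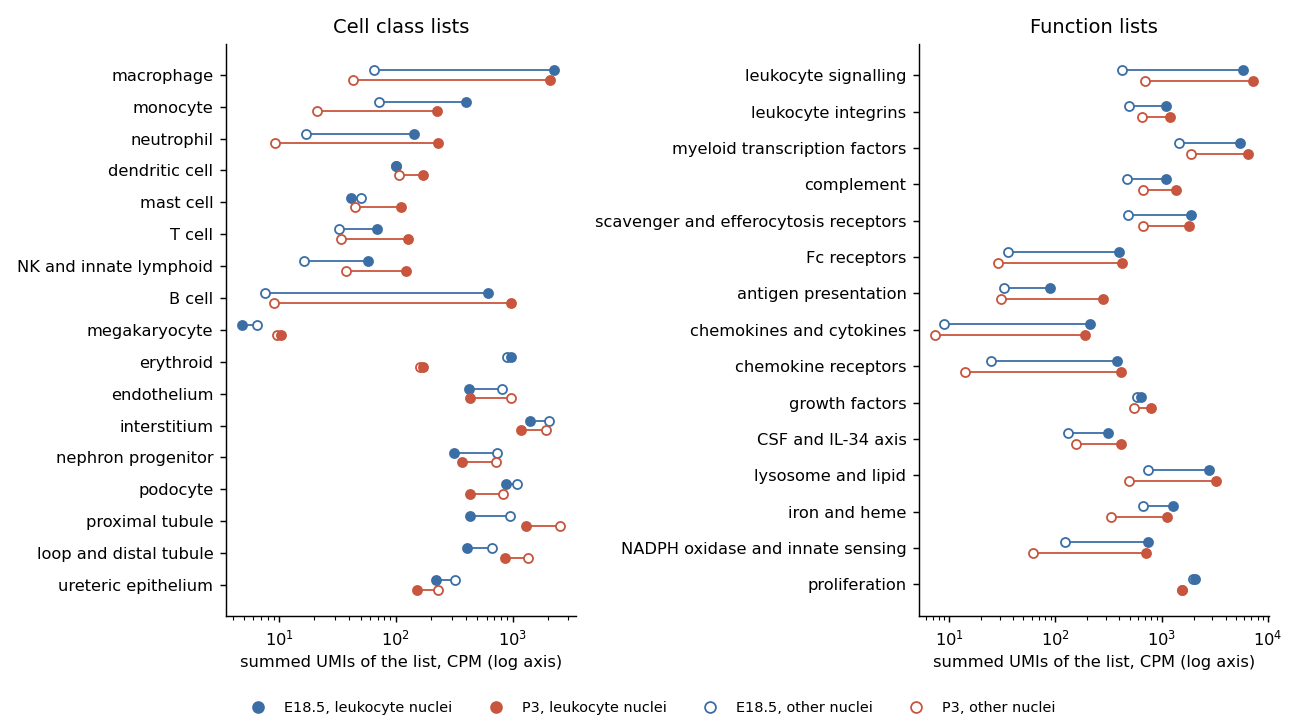
Summed level of each gene list (CPM, log axis) in leukocyte nuclei (filled) and all other kept nuclei (open) at E18.5 and P3. The macrophage list lies at 2247 against 64.5 CPM at E18.5 and 2092 against 43.4 CPM at P3, whereas the proliferation list lies at 2042 against 1954 CPM and 1548 against 1557 CPM.

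Markers of other kidney cells were present in leukocyte nuclei. Of 8 lists for other cell classes, 7 summed to less in leukocyte nuclei than in the other nuclei at both ages, the erythroid list being the exception, and 0 genes were at least 4-fold higher in leukocyte nuclei at either age. Single markers lay above the other nuclei, such as Ptpro of podocytes at E18.5 (240 against 184 CPM) and Pecam1 of endothelium at P3 (92.4 against 70.8 CPM). The proximal tubule list summed to 428 CPM in leukocyte nuclei against 959 CPM in the other nuclei at E18.5, and to 1290 against 2561 CPM at P3. Its gene with the most UMIs, Lrp2, had 155 CPM and 458 CPM in leukocyte nuclei. The interstitium list summed to 1422 against 2041 CPM at E18.5 and to 1172 against 1933 CPM at P3, and the endothelium list to 423 against 808 CPM and 429 against 970 CPM. The erythroid list had 968 against 888 CPM at E18.5 and 172 against 160 CPM at P3. Its gene with the most UMIs, Hbb-bs, had 583 against 525 CPM and 81.0 against 70.2 CPM, and Slc4a1, Epb42 and Hbb-y had 0 UMIs in leukocyte nuclei at both ages. Scrublet called 44 leukocyte nuclei doublets at E18.5 (21.0%, 15.7 to 27.1) and 53 at P3 (22.5%, 17.3 to 28.3), against 12.2% and 11.8% of the other nuclei. These nuclei were kept. The part of doublets and free RNA in the values above was not tested, and without doublet calls 516 and 398 genes met the rule for lower levels in place of 141 and 138.

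The leukocyte content was then described with 9 marker lists that leave out the 8 genes of the rule, calling a lineage where a nucleus had at least 2 genes and at least 3 UMIs of its list. The macrophage list was met by 131 of 210 leukocyte nuclei at E18.5 (62.4%, 55.5 to 69.0) and 156 of 236 at P3 (66.1%, 59.7 to 72.1). It was met by 0.227% and 0.265% of the other nuclei and by 0.708% and 0.756% of proximal tubule nuclei. After thinning to 1000 UMIs the macrophage calls were 55 (26.2%) and 82 (34.7%) of the same nuclei. Of the 17 markers, 13 were considered and 13 were at least 4-fold higher at E18.5, and 16 and 15 at P3. Over all genes, 5.17% and 6.35% were higher. Folr2 was the exception at P3, and Vsig4 had 0 UMIs at E18.5. Markers this low in other nuclei entered the count through leukocyte nuclei, so the counts are a description. Msr1, a scavenger receptor, had 149 and 158 CPM, and Ms4a7, a macrophage membrane protein, 162 and 247 CPM. Lyve1 and Timd4, which mark resident macrophages, were rare, with 20.8 and 14.8 CPM of Lyve1 and 7 and 14 UMIs of Timd4. By these genes outside the rule, macrophages formed the largest called group at both ages. The rule itself holds the macrophage genes Mrc1, Csf1r and Adgre1, and the macrophage list is the longest of the 9. By a rule without those genes, 65.0% of leukocyte nuclei at E18.5 and 66.2% at P3 met the macrophage list.

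The monocyte list was met by 20 nuclei at E18.5 (9.52%, 5.91 to 14.3) and 8 at P3 (3.39%, 1.47 to 6.57). In 9 and 2 of these nuclei the macrophage list was met as well. Ms4a6c had the most UMIs of the list, with 200 CPM of the 401 CPM of the list at E18.5 and 84.4 of 226 CPM at P3, while Ly6c2, a defining gene of classical monocytes, had 1 and 4 UMIs. The neutrophil list was met by 7 and 5 nuclei. At P3, 42 UMIs of S100a8 and 65 of S100a9, the subunits of calprotectin, came from 5 nuclei each. Mpo and Elane, genes of neutrophil precursors, had 0 UMIs at both ages. The dendritic cell list was met by 2 and 7 nuclei, a share of 0.952% and 2.97% against 0.303% and 0.519% of other nuclei. At P3 the share was 1.64% without doublet calls and 1.27% with 3 genes and 4 UMIs of the list. With the quality limits of the study's methods, which here kept more nuclei than the study retained, the shares were 2.41% and 5.48%. Of the 7 nuclei at P3, 5 lay in a cluster with doublet calls in 71.8% of its nuclei. Zbtb46, its gene with the most UMIs, was no higher in leukocyte nuclei (51.3 against 86.8 CPM and 77.5 against 94.0 CPM), and Xcr1 had 0 UMIs at both ages. The mast cell list was met by 1 and 4 nuclei, and 38 UMIs of Cpa3, a mast cell protease, came from 5 nuclei at P3.

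Lymphocytes were few. The T cell list was met by 3 nuclei at E18.5 and 5 at P3, and Cd3d and Cd8a had 0 UMIs at both ages. The list of NK and innate lymphoid cells was met by 2 and 5 nuclei. The megakaryocyte list was met by 0 nuclei at both ages (0 to 1.74% and 0 to 1.55%). A floor of 3 nuclei would be 1.43% and 1.27%. These values concern nuclei that meet the list, and nuclei of that type can miss it at this depth. The B cell list was met by 5 nuclei at E18.5 (2.38%, 0.778 to 5.47) and 34 at P3 (14.4%, 10.2 to 19.5), but 4 and 19 of these also met the macrophage list. Bank1, an adaptor of B cell receptor signaling, stood apart within the list. It had 598 CPM (539 to 662) of the 614 CPM of the list at E18.5, was detected in 61.9% of leukocyte nuclei and had 699 CPM (619 to 786) in the nuclei that met the macrophage list. At P3 it had 783 CPM (715 to 856) in macrophage-list nuclei and 1079 CPM (831 to 1378) in 15 nuclei that met the B cell list without it. The B cell list without Bank1, chosen after seeing the data, was met by 0 of 210 nuclei at E18.5 (0 to 1.74%, for nuclei that meet the list) and by 15 of 236 at P3 (6.36%, 3.60 to 10.3). None of the 15 met the macrophage list, and 1 was called a doublet. At E18.5 Cd79a, Pax5, Blk, Igkc and Fcmr had 0 UMIs in leukocyte nuclei.

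**Figure D3:**
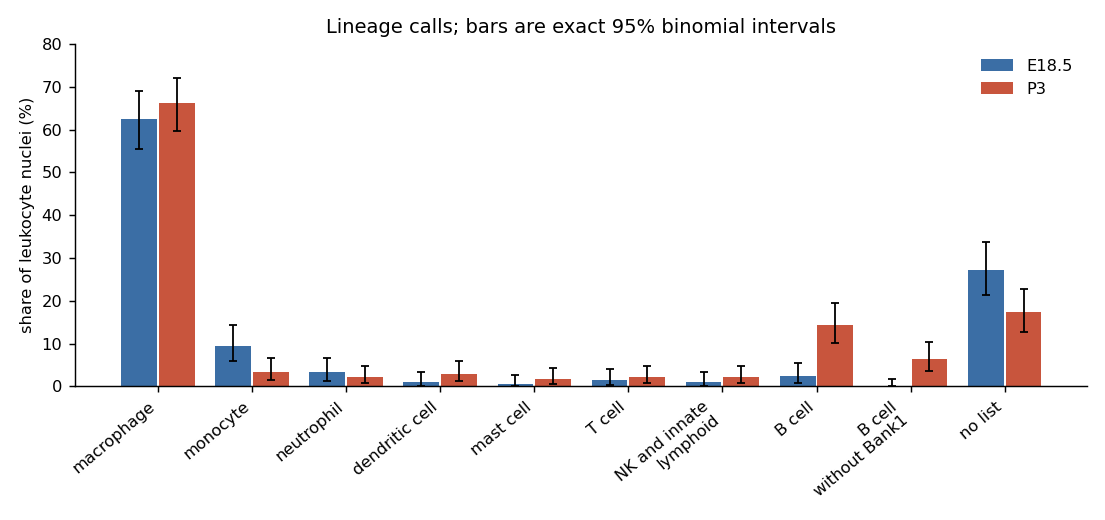
Share of leukocyte nuclei (percent, with exact 95% binomial intervals) that met each marker list at E18.5 and P3, with the B cell list also shown without Bank1. The macrophage list stands at 62.4% and 66.1%, and 27.1% of nuclei at E18.5 and 17.4% at P3 met no list.

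The nuclei without Mrc1, Csf1r or Adgre1 were chosen for lacking macrophage genes, and 2 met the macrophage list at each age. Of the 48 such nuclei at P3, 13 met the B cell list, 5 each the T cell, the NK and innate lymphoid and the dendritic cell lists, and 4 the neutrophil list. Of the 22 such nuclei at E18.5, 5 met the neutrophil list, 3 each the monocyte and T cell lists and 0 the B cell list. Lists can overlap in 1 nucleus.

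Clustering of the leukocyte nuclei alone gave 9 E18.5 clusters and 10 P3 clusters, which describe how the nuclei varied. A set of clusters was led by genes of other kidney cells and consisted mainly of doublet calls. At E18.5 these were 4 clusters with 57 nuclei (27.1%), whose median depths of 3546 to 4759 UMIs lay above the 2223 to 2500 UMIs of the other clusters. Their leading genes were those of interstitial cells such as Dkk2 and Ebf1, of tubules such as Slc12a1 and Pkhd1, of podocytes such as Magi2 and Synpo, and of nephron progenitors such as Eya1 and Pax2. At P3 these were 3 clusters with 61 nuclei (25.8%) and median depths of 5699 to 8470 UMIs, above the 1728 to 2925 of the others, led by Dkk2, Slc12a1 with Slc12a3, and Slc22a27. Of these nuclei, 32 at E18.5 and 41 at P3 met the macrophage list. The clusters remained unnamed.

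**Figure D4:**
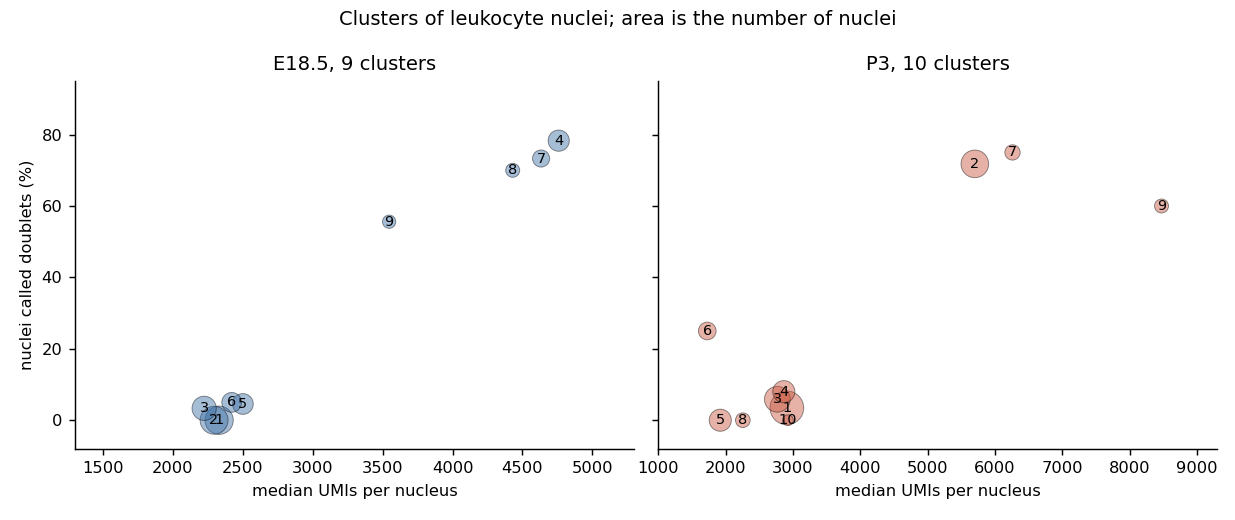
Clusters of leukocyte nuclei at E18.5 and P3, plotted by median UMIs per nucleus (horizontal axis) and percent of nuclei called doublets (vertical axis), with the area of each point proportional to its number of nuclei. Clusters with doublet calls in 55.6% to 78.3% of nuclei at E18.5 and 60.0% to 75.0% at P3 lie at the higher depths.

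At E18.5, 2 clusters with 81 nuclei were macrophage-like. In the first, 20 of 41 nuclei met the macrophage list, F13a1 had 375 CPM against 1456 CPM in the other leukocyte nuclei, Cd163 had 0 UMIs and no marker of the list was among the leading 10 genes. In the second, 39 of 40 nuclei met the list. The second cluster held 17 of the 24 UMIs of Pf4, a chemokine of macrophages and platelets, and 348 of the 802 of F13a1. A cluster of 20 nuclei held 11 of 12 UMIs of Cd74, which chaperones MHC class II, with 59 UMIs of Klra2 and 29 of Fgr. In it 8 nuclei met the macrophage list, 8 the monocyte list and 5 the neutrophil list, and it was left unnamed. At P3, a macrophage-like cluster of 58 nuclei, of which 51 met the macrophage list, held 42 of 64 UMIs of Cd163, 17 of 24 of Spic and 19 of 27 of Hmox1, the heme-degrading enzyme. Another macrophage-like cluster of 16 nuclei was led by H2-Ab1, whose 10 UMIs there came from 2 nuclei. A cluster of 25 nuclei, in which 20 met the macrophage list, held 15 of 19 UMIs of Siglech from 4 nuclei, and Kif23 and Ttk, genes of cell division, were among its leading 10 genes. A cluster of 34 nuclei was led by Kit, Il1rl1 and Cpa3 although 30 of its nuclei met the macrophage list. Both stayed unnamed.

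The other P3 clusters held few nuclei each. In a cluster of 25 nuclei Klra2 was found in 16, Fgr in 17 and Gpr141 in 13, genes that also led an unnamed E18.5 cluster, and 4 nuclei met the neutrophil list and 4 the monocyte list. The marker rule gave it the name neutrophil-like from few nuclei, since the 42 UMIs of S100a8, 59 of S100a9 and 16 of Retnlg came from 5, 3 and 3 of them. A B cell-like cluster of 11 nuclei held 39 of 46 UMIs of Pax5, the factor of B cell identity, 19 of 21 of Ms4a1, which encodes CD20, and 17 of 19 of Ighd, the heavy chain of IgD. All 11 met the B cell list, 0 met the macrophage list and 0 were called doublets. A cluster of 6 nuclei, T cell-like by the marker rule, held all 29 UMIs of Il23r, the interleukin-23 receptor, and 12 of 15 of Il7r, a marker of the NK and innate lymphoid list. In it 4 nuclei met the T cell list and 3 that of NK and innate lymphoid cells, and its leading 10 genes held 2 T cell markers and 2 of other lists.

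Between the ages, expression in leukocyte nuclei was compared as the ratio of P3 CPM to E18.5 CPM, beside the same ratio in all other nuclei. Of 10173 genes with at least 20 UMIs in leukocyte nuclei over both libraries, 655 (6.44%) were at least 2-fold higher at P3 and 1106 (10.9%) at least 2-fold lower. Divided by the ratio in other nuclei, 501 were higher and 276 lower, so that the excess of lower genes turned into one of higher genes. The median ratio was 0.988 in leukocyte nuclei and 0.951 in other nuclei. Among genes with at least 100 CPM at one age, 8 of the 10 highest ratios were accompanied by a ratio over 3 in other nuclei. Pck1, the gluconeogenic enzyme, had a ratio of 8.61 in leukocyte nuclei and 9.20 in others, so that divided by other nuclei its direction turned (0.936). Kap, a kidney androgen-regulated gene of the proximal tubule, had 6.40 and 3.67, and Cpt1a, the carnitine transferase of fatty acid oxidation, 4.57 and 3.38. Of the proximal tubule list, 7 of 8 genes were higher at P3, with a median of 3.04 in leukocyte nuclei and 2.44 in others. The remaining highest ratios were those of Gm19951, Snhg9, Nox4, Sugct and Gphn, at 15.4, 6.96, 4.58, 4.51 and 4.20, and those of Cd74 and Cd36. In other nuclei Gm19951, Snhg9, Nox4, Sugct and Gphn had 11.5, 4.21, 4.60, 5.13 and 3.17. Several of the highest ratios moved with the settings. Without doublet calls Gm19951 had 40.5 and Nox4 7.67, after thinning Sugct had 2.78, and without mixed nuclei Pck1 had 4.29.

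The lowest ratios included those of hemoglobin, ribosomal protein and growth genes. Hbb-bs had 0.139 in leukocyte nuclei and 0.134 in others, and Hba-a1 had 0.185. Rps27l, Rps7, Rpl9, Rpl35 and Rpl7 had ratios of 0.152, 0.183, 0.179, 0.197 and 0.198. Tpt1, which encodes a translation-linked tumor protein, had 0.172 and Igf2, the fetal growth factor, 0.178. Divided by the ratio in other nuclei, the ratios of these genes lay between 0.765 and 1.18, with Hbb-bs, Tpt1 and Rpl7 above 1.

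Cd74 and Cd36, by contrast, were among the highest with lower ratios in other nuclei. Of the 7 antigen presentation genes, 6 had enough UMIs and 6 were at least 2-fold higher at P3, beside 6.44% of all genes. None of them reached 20 UMIs at E18.5, so each needed its P3 UMIs to be considered. For Ciita, with 5 UMIs at E18.5, meeting the filter required a ratio of at least 2-fold. For the other genes the filter could be met under 2-fold. The count is a description only. Cd74 UMIs numbered 12 at E18.5 and 89 at P3, with a ratio of 5.28 (2.88 to 10.6) against 1.40 in other nuclei. H2-Aa, H2-Ab1 and H2-Eb1, chains of MHC class II, had 9, 6 and 8 UMIs at E18.5 and 34, 24 and 33 at P3. Ciita, the activator of class II genes, had 5 and 25 UMIs, a ratio of 3.56 (1.34 to 11.9), and H2-DMa, a peptide exchange factor, 10 and 37 UMIs. H2-DMb1, the partner of H2-DMa, had only 5 and 4 UMIs and was not considered. Cd74 was detected in 3.81% of leukocyte nuclei at E18.5 and 11.0% at P3, against 0.425% and 1.51% of proximal tubule nuclei. A subset of nuclei met the macrophage list and neither the B cell nor the dendritic cell list. In this subset Cd74 had 1 and 18 UMIs, H2-Aa 1 and 9 and H2-Eb1 1 and 3. Most P3 UMIs of these genes thus lay in other leukocyte nuclei. The choice of subset partly set this split, since the dendritic cell list holds Ciita, which had 0 UMIs there at both ages. The subset ratios of Cd74, H2-Aa and H2-Eb1 were 13.3 (2.10 to 555), 6.66 (0.923 to 292) and 2.22 (0.178 to 117), each resting on 1 UMI at E18.5. H2-Ab1 had 3 and 8 UMIs in the subset (ratio 1.97, 0.474 to 11.5). For H2-DMa, 19 of the 37 P3 UMIs lay in the subset (ratio 2.34, 0.900 to 7.17). With the limits of the study's methods the ratios were 3.35 for Cd74, 1.91 for H2-Eb1 and 1.24 for H2-DMa, and that of H2-Aa was also under 2-fold. With a stricter membership rule of at least 4 genes and 6 UMIs they were 2.30 for Cd74 and 1.44 for H2-Aa. Other settings gave higher values. Cd74 had 14.4 after thinning, and without mixed nuclei Cd74 had 6.64, H2-Aa 3.91 and H2-Eb1 5.90.

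B cell genes followed. Of the 11 genes, 6 were considered and 5 were at least 2-fold higher at P3, beside 6.44% of all genes. Those 5 had enough UMIs only through their level at P3, so they had to be higher. Ighm, the heavy chain of IgM, had 3 and 84 UMIs, a ratio of 19.9 (6.59 to 98.5). Pax5 UMIs numbered 0 at E18.5 and 46 at P3, at least 10.9-fold higher against a floor of 3 UMIs over the group, and Blk, a B cell kinase, had 0 and 28, at least 6.64-fold higher. Ms4a1 had 1 and 21 UMIs (ratio 14.9, 2.40 to 618) and Cd79b, a B cell receptor subunit, 3 and 18 (ratio 4.27, 1.25 to 22.6). With the limits of the study's methods the ratio of Ighm was 5.16, that of Ms4a1 9.13 and that of Cd79b 2.17, and with the stricter membership rule that of Ighm was 7.16.

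Macrophage genes differed in their ratios. F13a1 had lower CPM at P3, with a ratio of 0.554 (0.498 to 0.615) against 0.870 in other nuclei, and 0.530 (0.473 to 0.593) in nuclei that met the macrophage list and neither the B cell nor the dendritic cell list, and 0.316 under the limits of the study's methods. Pf4 had 38.5 and 120 CPM, a ratio of 3.11 (1.98 to 5.07) against 0.280 in others. C1qb had a ratio of 2.09 (1.55 to 2.84), C1qa 1.81 (1.26 to 2.66) and C1qc 1.84 (1.27 to 2.71), against 0.243 to 0.399 in other nuclei. These ratios varied with the settings. The limits of the study's methods, as applied here, kept barcodes of high depth and more nuclei than the study retained. With these limits the ratios were 1.12 for C1qb, 1.23 for C1qa and 0.975 for C1qc, and Pf4 had 1.80. C1qc had 3.54 without mixed nuclei and 3.15 after thinning each nucleus to 1000 UMIs. Ms4a7 had 1.53 (1.20 to 1.96) and 0.925 under those limits. Cx3cr1 had 0.888, Msr1 1.06 and Cd163 1.14, with intervals that include 1, but 0.521, 0.672 and 0.652 under those limits, and Cd163 had 2.44 without mixed nuclei. Divided by other nuclei, Cx3cr1 turned to 1.42, Msr1 had 1.74, Cd163 2.40 and Ms4a7 2.87, while F13a1 had 0.636. Of 15 macrophage markers considered, 2 were at least 2-fold higher and 0 lower, beside 6.44% and 10.9% of all genes, with a median of 1.40 in leukocyte nuclei and 0.481 in others.

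Of the 15 genes of lysosome and lipid handling considered, 3 were at least 2-fold higher at P3 (Apoe, Plin2 and Lipa, against 6.44% of all genes) and 2 lower (Ctsl and Npc2, against 10.9%), with a median of 1.14. Ctsl, a protease, and Npc2, a cholesterol carrier, had ratios of 0.394 and 0.472, close to the 0.419 and 0.502 of other nuclei. Apoe, the lipid carrier apolipoprotein E, had 335 CPM (291 to 384) at E18.5 and 787 CPM (729 to 848) at P3, a ratio of 2.35 (2.01 to 2.76) against 0.489 in other nuclei. Cd36, a receptor for fatty acids and oxidized lipoproteins from the scavenger receptor list, had 28 and 162 UMIs, a ratio of 4.12 (2.74 to 6.39) against 1.51. It was detected in 7.62% and 30.5% of leukocyte nuclei and in 12.4% and 7.97% of proximal tubule nuclei. Plin2, a coat protein of lipid droplets, had a ratio of 2.34 (1.64 to 3.41) against 1.17. In nuclei that met the macrophage list and neither the B cell nor the dendritic cell list, the ratios were 2.80 (2.30 to 3.42) for Apoe, 4.00 (2.53 to 6.63) for Cd36 and 2.68 (1.72 to 4.30) for Plin2. With the limits of the study's methods they were 1.49, 2.48 and 1.54 in all leukocyte nuclei, and after thinning 2.16, 26.6 and 1.36.

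**Figure D5:**
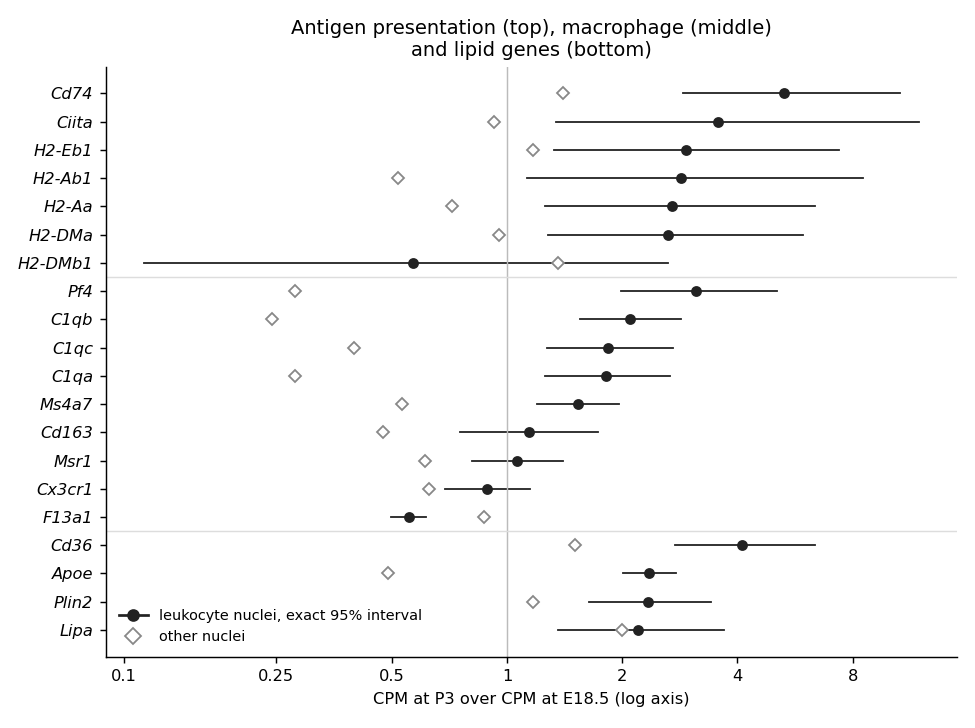
Ratio of P3 to E18.5 CPM (log axis) for antigen presentation, macrophage and lipid genes in leukocyte nuclei, with exact 95% intervals, and in all other nuclei (diamonds). The ratios of leukocyte nuclei run from 0.554 for F13a1 to 5.28 for Cd74 among the plotted genes.

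Single genes of other lists had lower ratios. Of the 9 genes of the NADPH oxidase and innate sensing considered, 0 were higher and 1 lower, beside 6.44% and 10.9% of all genes. Their median ratio was 1.07. Ms4a6c had 0.421 (0.312 to 0.566) and Plac8 0.382 (0.248 to 0.582), but their ratios in other nuclei were 0.229 and 0.278, so that relative to other nuclei both pointed upward (1.84 and 1.38). Il18 had 0.484 (0.303 to 0.763) against 0.621 in others. Tlr4, the receptor for lipopolysaccharide, had 0.487 (0.315 to 0.744) against 1.31, and Cd300lf, an inhibitory receptor of myeloid cells, 0.342 (0.156 to 0.705) against 0.964. With the stricter membership rule Tlr4 had 0.576, Cd300lf 0.512 and Il18 0.501, none at least 2-fold lower, and Tlr4 had 0.617 (0.367 to 1.03) in nuclei that met the macrophage list and neither the B cell nor the dendritic cell list. Laptm5, a lysosomal protein of leukocytes, had 2.87 (1.90 to 4.47) and Coro1a, an actin regulator, 2.38 (1.52 to 3.85). They were the 2 higher members of the signaling list of 20, beside 6.44% of all genes. With the limits of the study's methods they had 1.86 and 1.32, both under 2-fold. Some settings gave higher values, with 4.71 for Laptm5 after thinning and 4.89 for Coro1a without mixed nuclei. Coro1a had 1.79 (0.885 to 3.85) in nuclei that met the macrophage list and neither the B cell nor the dendritic cell list. Itgb2, the shared chain of the leukocyte integrins, had 6 and 30 UMIs, of which 4 and 8 lay in the same subset (interval of the ratio 0.396 to 6.72), and Cebpb, a factor of myeloid activation, had a ratio of 2.43 (1.44 to 4.30), or 1.70 under those limits. Several of the other higher ratios rested on few nuclei. Il1rl1 had 7 and 50 UMIs, from 5 and 14 nuclei, and Cpa3 2 and 38 UMIs, from 2 and 5 nuclei. S100a8 had a ratio of 2.49 (1.29 to 5.20) and S100a9 of 3.08 (1.74 to 5.82), and their P3 UMIs came from 5 nuclei each. With the limits of the study's methods they had 1.47 and 1.58, both under 2-fold, and S100a9 had 1.37 without mixed nuclei and 6.14 with the stricter membership rule. Divided by the ratio in other nuclei they had 7.47 and 8.74. Fc receptors and chemokine receptors had 0 genes past 2-fold in either direction, of 6 and 4 considered. Proliferation genes had 0 higher and 2 lower of 19, near the 10.9% of all genes that were lower, with a median of 0.765 in leukocyte nuclei and 0.754 in others.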

How the data were processed

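Nuclei from pooled kidneys were sequenced with 10x Genomics chemistry, 1 library at E18.5 and 1 at P3. The deposited values are UMI counts per gene and barcode for 32285 genes, unnormalized. The authors made them with Cell Ranger 5.0.1 on mm10 for both libraries according to the submitters' processing notes, whereas the matrix headers name 7.0.0 for E18.5 and 5.0.1 for P3. Whether intronic reads were counted is not given in the sources used here. A release that counted introns in only 1 library would alter ratios between ages.

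The leukocyte nuclei, gene lists and rules were chosen with earlier results of these data known. Groups came from the age in the labels. Counts were summed over nuclei as CPM, without scaling for gene length, so the gene with the most UMIs of a list need not be the most expressed. Shares received exact binomial (Clopper-Pearson), levels exact Poisson and ratios exact conditional binomial intervals at 95%. A count of 0 was read against a floor of 3 counts. Genes were considered for the ratio to other nuclei with 10 UMIs observed or expected, and between ages with 20 UMIs, and called at 4-fold and 2-fold. Lineage calls needed 2 genes and 3 UMIs. Doublets were called with scrublet (scanpy 1.11.5, expected rate 10%) and kept. Clusters used 1000 variable genes, 20 principal components, 10 neighbors and Leiden resolution 1. A cluster was named only where at least 3 markers of a list were raised, more than of any other list, its leading 10 genes held no more markers of other classes than of its own, and doublet calls were at most 50%. The rule on Tox and Skap1, which left an E18.5 cluster of 30 nuclei unnamed, was added after clusters were seen. The methods were tested on simulated counts, drawn independently for each gene over the summed totals. The simulation held no variation between nuclei, so it cannot speak for genes whose UMIs came from few nuclei. Python 3.11.15, numpy 2.4.6, scipy 1.17.1, pandas 2.3.3 and matplotlib 3.10.9 were used.

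Named genes were the 8 genes of the membership rule, members of the lists, the 15 genes per library with the highest ratio among those with 20 UMIs, and the 10 highest and 10 lowest ratios between ages among genes with 100 CPM at one age, without mitochondrial genes. Some genes that this rule selects are not reported here. Cluster leaders outside the lists were named after their values were seen. Alternatives covered the membership rule, depth, doublets, mixed nuclei, quality limits, filters, scale, call rule and resolution.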

Additional observations from a re-analysis of the deposited data

Results flagged for a closer look

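Barcodes above the depth limits were not used in the comparisons, yet 38 of them at E18.5 and 55 at P3 met the gene rule for leukocyte nuclei. They stood out because a leukocyte signal appeared in data outside the main measurement. Their median depths were 8766 and 16827 UMIs, and the 55 at P3 held 1493959 UMIs, more than the 876985 UMIs of the 236 leukocyte nuclei. Scrublet called 84.2% of them doublets at E18.5 (68.7 to 94.0) and 92.7% at P3 (82.4 to 98.0), against 59.1% and 59.9% of the other barcodes above the limits. Their macrophage list summed to 1141 and 331 CPM, below the 2247 and 2092 CPM of leukocyte nuclei. Their proximal tubule list summed to 1249 and 3228 CPM, above the 428 and 1290 CPM of leukocyte nuclei, and their interstitium list to 1377 and 1158 CPM, beside 1422 and 1172 CPM.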

How the results depend on the processing

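Of 196 repeats of the main results under other settings, 147 stayed within the limits set for a count or share. Another 49 moved and 0 reversed. Counts, shares and numbers of clusters hold no direction that could reverse, so the 0 is no sign of stability. The cause of the moves was not tested except where the alternative itself removes UMIs, genes or nuclei. Those limits were wide for small counts, so staying within them does not mean an equal value. T cell calls at E18.5 stayed within them at 0.476% in place of 1.43% (3 genes and 4 UMIs). Dendritic cell calls at P3 stayed within them at 5.48% in place of 2.97% (limits of the study's methods). The share at E18.5 was 0.948% by a rule without the macrophage genes and the share at P3 2.10% by a stricter rule. Without mixed nuclei, those with at least 10 UMIs of other classes, the shares were 3.04% and 12.2% and their ratio 4.03. These values follow from the filter, which removed 79.2% and 90.9% of other nuclei against 42.9% and 51.3% of leukocyte nuclei. After thinning the shares were 0.659% and 1.74%, genes higher in leukocyte nuclei numbered 329 and 429, genes lower 241 and 270, and 337 and 385 genes were higher and lower between ages. Genes lower in leukocyte nuclei at E18.5 and P3 numbered 516 and 398 without doublet calls, 444 and 527 without mixed nuclei, 35 and 33 under the limits of the study's methods and 61 and 64 with a filter of 20 UMIs, and 317 at P3 with CPM averaged over nuclei. Between ages, 272 genes were higher and 541 lower with a filter of 50 UMIs, and 276 lower when divided by other nuclei. Among thinned members, E18.5 and P3 calls were 28.5% and 46.3% for macrophages, 2.44% and 0.617% for monocytes, 0% and 1.85% for B cells, 0% and 0.617% for T cells, and 0% at both ages for NK and innate lymphoid cells, with 0% neutrophil and mast cell calls at E18.5 and 0.617% dendritic cell calls at P3. With 3 genes and 4 UMIs per list, calls at E18.5 were 44.3% for macrophages, 3.81% for monocytes and 0% for B cells and for NK and innate lymphoid cells, and B cells at P3 5.93%. The stricter membership rule gave 76.9% macrophage, 9.74% B cell and 0.513% T cell calls at P3 and 0% mast cell calls at E18.5, and NK and innate lymphoid calls at E18.5 were 0% without mixed nuclei. The B cell list without Bank1, chosen after seeing the data, gave 0% and 6.36%. A resolution of 0.5 gave 6 clusters at P3. Of 392 repeats of ratios between ages for 51 genes, 371 stayed on the same side of 1. Of the other 21, 11 were of Cx3cr1, Msr1 and Cd163, whose intervals include 1. The others were C1qc (0.975) and Ms4a7 (0.925) under the limits of the study's methods and, divided by other nuclei, Hbb-bs (1.04), Ms4a6c (1.84), Nox4 (0.996), Pck1 (0.936), Plac8 (1.38), Rpl7 (1.18), Sugct (0.878) and Tpt1 (1.03). No paired analysis was possible because each age had 1 library. Depth limited calls for lists with few UMIs per nucleus, so a nucleus that met no list may belong to any of them.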
